A study of Mus musculus with 4 samples.

Results

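Cyclic nucleotide phosphodiesterases hydrolyse cyclic AMP, cyclic GMP or both, and so end the signals that receptors coupled to adenylyl or guanylyl cyclase start. The set described here holds 10 of these genes, namely Pde10a, Pde1b, Pde7b, Pde1a, Pde1c, Pde2a, Pde4a, Pde4b, Pde4d and Pde8b. They were chosen by name, as the rows of the deposited gene table that carry 1 of these symbols, and each symbol matched 1 of the 29144 rows. RNA levels were measured in the striatum of 4 mouse genotypes, with 1 library each, from 21-week-old C57BL/6J animals. The HDQ+/+ library came from the wild type. The other 3 came from Huntington's disease knock-in alleles, which carry an expanded glutamine-coding repeat at the Huntington's disease locus. HDQ150/150 and HDQ200/200 carry 2 mutant alleles, and HDQ315/+ carries 1 mutant and 1 wild-type allele. In HDQ315/+ the longest repeat and a remaining wild-type allele therefore cannot be told apart. The sources used here do not give sex, the number of animals behind a library or any pooling.

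The striatum is dominated by projection neurons that receive dopamine, and cyclic AMP and cyclic GMP set how strongly these neurons respond to it. Dopamine D1 receptors and the adenosine receptor encoded by Adora2a raise cyclic AMP there, D2 receptors lower it, and the phosphodiesterases clear it. Pde10a and Pde1b are dual-substrate enzymes that are abundant in projection neurons. Pde10a marks these neurons so strongly that its protein is used as an imaging target in Huntington's disease. Pde7b is a cyclic AMP-specific enzyme that is also abundant in the striatum. Pde1a, Pde1b and Pde1c encode the 3 calmodulin-stimulated enzymes. Pde2a is a dual-substrate enzyme that cyclic GMP activates, Pde4a, Pde4b and Pde4d belong to the rolipram-sensitive cyclic AMP-specific family, and Pde8b is cyclic AMP-specific with high affinity.

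The values are FPKM as deposited, which are fragments scaled by transcript length and by library size. The libraries held 36877650 fragments for HDQ+/+, 25058813 for HDQ150/150, 33468931 for HDQ200/200 and 26324790 for HDQ315/+. A difference is given as the difference of log2(FPKM + 1), and is called from 1.5-fold, which is 0.58 on that log2 scale. With 1 library per genotype there is no spread between animals and no test, so a call is a statement of size about these libraries. The intervals are exact 95% Clopper-Pearson intervals on the fragments and cover counting error only. All 10 genes passed the filter on low values, a mean of 1 FPKM or more, as did 12875 genes in all.

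The promoters of the 3 most strongly lowered genes and of the gene most clearly raised are shown, because the members of this family moved in opposite directions. Each window holds 300 bases from RefSeq (GRCm38.p6), from 250 before to 50 after a start in the promoter table, taken as the start in that table nearest to the 5′ end of the deposited feature. They are written 5′ to 3′ on the gene's strand. Capitals mark the GC box, searched as GGGCGG on both strands. The windows are chr17:8801495-8801794 on the plus strand for Pde10a, chr15:103502784-103503083 on the plus strand for Pde1b, chr10:20548279-20548578 on the minus strand for Pde7b and chr2:80129363-80129662 on the minus strand for Pde1a.
Pde10a: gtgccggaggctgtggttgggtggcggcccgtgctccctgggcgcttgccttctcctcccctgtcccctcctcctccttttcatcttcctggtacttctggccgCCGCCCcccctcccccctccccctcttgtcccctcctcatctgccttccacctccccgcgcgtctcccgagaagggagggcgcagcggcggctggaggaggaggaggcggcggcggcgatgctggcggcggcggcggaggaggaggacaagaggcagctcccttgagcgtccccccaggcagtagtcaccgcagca
Pde1b: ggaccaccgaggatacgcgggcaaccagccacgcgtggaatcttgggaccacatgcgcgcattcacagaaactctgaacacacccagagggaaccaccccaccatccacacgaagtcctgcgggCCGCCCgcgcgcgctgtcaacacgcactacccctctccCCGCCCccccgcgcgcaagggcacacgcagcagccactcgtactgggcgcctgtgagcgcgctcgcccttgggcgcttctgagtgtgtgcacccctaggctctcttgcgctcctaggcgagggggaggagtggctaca
Pde7b: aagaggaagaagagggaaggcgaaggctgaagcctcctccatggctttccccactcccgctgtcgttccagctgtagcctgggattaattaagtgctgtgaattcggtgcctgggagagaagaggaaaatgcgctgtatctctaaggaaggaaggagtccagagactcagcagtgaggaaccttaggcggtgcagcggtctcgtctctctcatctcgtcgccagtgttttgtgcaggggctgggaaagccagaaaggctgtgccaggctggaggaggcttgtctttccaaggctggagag
Pde1a: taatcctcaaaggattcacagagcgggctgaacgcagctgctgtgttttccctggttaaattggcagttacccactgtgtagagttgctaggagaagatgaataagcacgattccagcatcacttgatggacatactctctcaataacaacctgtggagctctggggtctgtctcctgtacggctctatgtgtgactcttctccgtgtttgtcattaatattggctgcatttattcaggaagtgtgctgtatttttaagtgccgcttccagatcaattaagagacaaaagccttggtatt
The Pde10a window was 71.3% G or C and held a GC box 146 bases before the start. The Pde1b window was 67.0% G or C and held 2 GC boxes, 126 and 88 bases before the start. The Pde7b window (55.7% G or C) and the Pde1a window (44.3%) held none. A GC box was in 35.7% of the 32851 promoters of the table and in 3 of the 10 members' windows. The cyclic AMP response element TGACGTCA, in 1.79% of all promoters, was in 0 of the 10 windows. Its core TGACG, which lies inside that element, was in 20.8% of all promoters and in 1 window, that of Pde4b. The TATA box TATAAA was in 13.6% of all promoters and in 0 of the 10 windows. The table holds 1 promoter for Pde7b, whose start lies 176817 bases inside the deposited feature, which spans chromosome 10 from 20397079 to 20725145. It is an internal start, since the RefSeq gene on this minus strand begins at 20725078. The windows counted for Pde1c and Pde4b are internal as well, at 283015 and 166813 bases from the deposited 5′ end. The deposited Pde10a feature, on chromosome 17 from 8801745 to 8987049, has 1 group of start sites, and the RefSeq gene begins a further 276558 bases upstream. In mm10 the deposited Pde1b feature spans chromosome 15 from 103503160 to 103530052, and that of Pde1a chromosome 2 from 79834451 to 80129412. Pde1c lies on chromosome 6 from 56069804 to 56652649, and Pde2a on chromosome 7 from 101421691 to 101512829. Pde4a lies on chromosome 9 from 21165714 to 21213248, and Pde4b on chromosome 4 from 102254742 to 102607262. Pde8b (95024105 to 95250393) and Pde4d (108654177 to 109955969) share chromosome 13.

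Pde10a was 1 of the most abundant members in the wild type and had the most negative difference of any member from it. Its level was 157 FPKM in HDQ+/+, against 51.4 in HDQ150/150, 113 in HDQ200/200 and 69.2 in HDQ315/+. All 3 mutant libraries lay below the wild type, HDQ150/150 lowest and HDQ200/200 closest to it. These levels rest on 45727, 9215, 30060 and 12835 fragments. The difference was −1.59 in HDQ150/150 and −1.17 in HDQ315/+, both called, and −0.47 in HDQ200/200, which was not called. The ratio of counts to the wild type was 0.33 (0.32 to 0.34) in HDQ150/150, 0.75 (0.74 to 0.76) in HDQ200/200 and 0.41 (0.40 to 0.41) in HDQ315/+. Only 0.179% of the 12875 tested genes had a lower difference in HDQ150/150 and 0.217% in HDQ315/+, against 14.1% in HDQ200/200.

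The HDQ200/200 value of Pde10a stands beside a trend with transcript length in that library. In HDQ200/200 against the wild type, the median difference of genes was −0.48 for the shortest and 0.39 for the longest of 10 equal groups by transcript length, whose median lengths are 1047 and 8452 bases. In HDQ150/150 these medians were 0.10 and −0.11, and in HDQ315/+ 0.29 and −0.18. The longest annotated Pde10a transcript has 7769 bases, so it sits where the HDQ200/200 library read high. With the trend on length removed, the Pde10a differences were −1.49 in HDQ150/150, −0.86 in HDQ200/200 and −0.96 in HDQ315/+, and all 3 passed 1.5-fold. The part of length in the deposited values was not tested beyond this correction.

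**Figure D1:**
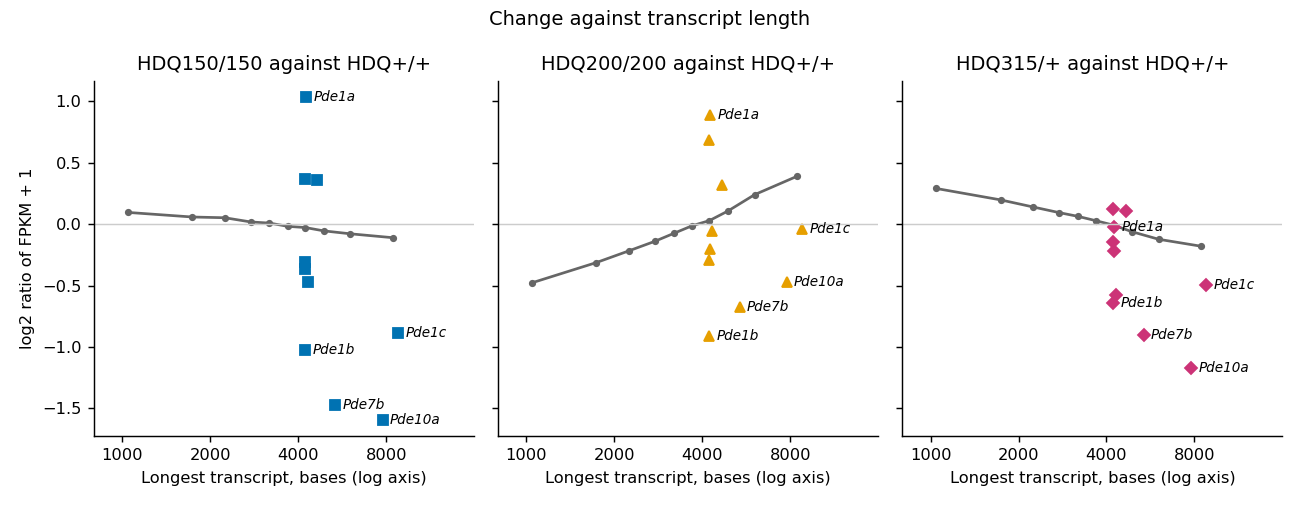
Median difference of log2(FPKM + 1) against HDQ+/+ over 10 equal groups of the tested genes ordered by longest transcript in bases (log axis), as a grey line in 1 panel per mutant genotype, with the 10 phosphodiesterases as coloured points. The HDQ200/200 line runs from −0.48 in the shortest group to 0.39 in the longest, while the HDQ315/+ line runs from 0.29 to −0.18.

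Pde1b, the calmodulin-stimulated enzyme of projection neurons, was the most abundant phosphodiesterase in every library. It measured 339.7 FPKM in HDQ+/+, against 167 in HDQ150/150, 179.9 in HDQ200/200 and 217 in HDQ315/+. The 3 mutant libraries lay together below the wild type, and HDQ315/+ was nearest to it. The differences of −1.02, −0.91 and −0.64 were called in all 3 genotypes. The ratio of counts was 0.52 (0.51 to 0.53) in HDQ150/150, 0.55 (0.54 to 0.56) in HDQ200/200 and 0.67 (0.66 to 0.68) in HDQ315/+. The HDQ315/+ call was lost on the deposited scaled counts (−0.57) and with a length correction from the length that these counts imply (−0.56). Pde1b ranked 144 among the tested genes by FPKM in the wild type and 388 in HDQ150/150.

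Pde7b was lowered in all 3 mutant genotypes, and each of its calls held under all 8 other settings that kept the fold size. Its level was 75.1 FPKM in HDQ+/+, against 26.5 in HDQ150/150, 46.8 in HDQ200/200 and 39.6 in HDQ315/+. Every mutant library lay under the wild type, in the same order as for Pde10a. The differences were −1.47, −0.67 and −0.91, and the ratios of counts were 0.36 (0.35 to 0.38), 0.64 (0.62 to 0.65) and 0.51 (0.49 to 0.52). Its paralog Pde7a, which is cyclic AMP-specific too, measured 5.70, 5.29, 7.81 and 4.90 FPKM in the same order of genotypes and passed 1.5-fold in none of the 3 comparisons with the wild type. The ratio of Pde7b to Pde7a FPKM within a library was 13.2 in HDQ+/+, against 5.01 in HDQ150/150, 5.99 in HDQ200/200 and 8.09 in HDQ315/+.

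**Figure D2:**
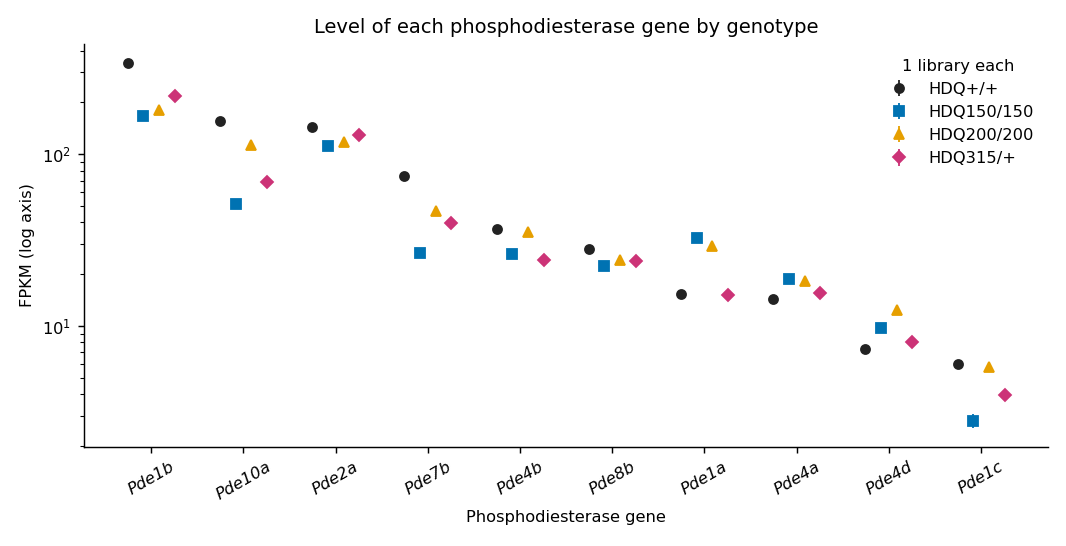
FPKM of the 10 phosphodiesterases in the 4 libraries on a log axis, with 1 point per genotype and exact 95% intervals for counting error. Pde10a, Pde1b and Pde7b are highest in HDQ+/+ (157, 339.7 and 75.1 FPKM), and Pde1a is highest in HDQ150/150 (32.4) and HDQ200/200 (29.3).

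Pde1a, the paralog of Pde1b, went the other way in the homozygous libraries. It measured 15.3 FPKM in HDQ+/+, against 32.4 in HDQ150/150, 29.3 in HDQ200/200 and 15.0 in HDQ315/+. The homozygous libraries stood apart above the wild type, and HDQ315/+ lay beside it. The differences were 1.03 and 0.89, both called under all 9 settings, and −0.03 in HDQ315/+. The ratio of counts was 2.14 (2.02 to 2.28) in HDQ150/150, 1.9 (1.8 to 2.0) in HDQ200/200 and 0.87 (0.81 to 0.93) in HDQ315/+. The scaled count per FPKM of Pde1a, a measure of the length used for FPKM, was 88.4% of the wild-type value in HDQ315/+. Pde1a has 4 groups of start sites in the table, and its row gives 1 value for the whole gene. Genes of cortical neurons were also higher in the homozygous libraries, with a summed FPKM of 127.7 for HDQ+/+, 416.8 for HDQ150/150 and 220.1 for HDQ200/200. Their sum was also above the wild type in HDQ315/+, at 188 FPKM, where Pde1a was level, and their part in the Pde1a values was not tested.

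The ratio of Pde1b to Pde1a FPKM was 22.2 in HDQ+/+, against 5.14 in HDQ150/150, 6.14 in HDQ200/200 and 14.4 in HDQ315/+. The longest annotated transcripts of the pair are of like length, 4215 bases for Pde1b and 4258 for Pde1a. Scaling between libraries cancels in this ratio, whereas effects of length or GC content need not. The lengths that the scaled counts imply are 3.79 kb for Pde1b and 3.19 kb for Pde1a. Their longest transcripts are 54.1% and 41.2% G or C.

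Pde1c, the third calmodulin-stimulated gene, was low and measured 5.99 FPKM in HDQ+/+, against 2.79 in HDQ150/150, 5.79 in HDQ200/200 and 3.97 in HDQ315/+. HDQ150/150 was lowest, and HDQ200/200 was within counting error of the wild type, with a ratio of counts of 1.0 (0.93 to 1.1). The difference was called in HDQ150/150 (−0.88), and not in HDQ200/200 (−0.04) or HDQ315/+ (−0.49). Its longest transcript has 8766 bases, and the length-corrected differences were −0.78, −0.50 and −0.27. Pde1c rests on 417 to 1442 fragments, and its HDQ150/150 difference shrank to −0.50 with a pseudocount of 5 and was then no longer called.

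Pde2a, the dual-substrate enzyme that cyclic GMP activates, had the smallest differences of the 3 most abundant members. Its level was 144 FPKM in HDQ+/+, against 111 in HDQ150/150, 118 in HDQ200/200 and 130.1 in HDQ315/+. Each mutant library was lower than the wild type, by −0.37, −0.29 and −0.15 on the log2 scale, and none was called. Pde10a and Pde2a were near each other in HDQ+/+, with a ratio of FPKM of 1.09, whereas in HDQ150/150 the ratio was 0.461. That ratio was 0.96 in HDQ200/200 and 0.532 in HDQ315/+. Exons of Pde2a overlap exons of the annotated gene Gm45837 on the same strand, so a part of the Pde2a fragments could belong to either.

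The 3 members from the PDE4 family, whose enzymes hydrolyse cyclic AMP alone, did not move as a block. Pde4b measured 36.5 FPKM in HDQ+/+, against 26.1 in HDQ150/150, 35.0 in HDQ200/200 and 24.2 in HDQ315/+. Its differences were −0.47 in HDQ150/150, −0.06 in HDQ200/200 and −0.58 in HDQ315/+, and none was called. The HDQ315/+ value lay just under the fold that calls a gene. The HDQ315/+ difference passed 1.5-fold under 4 of 9 settings, among them the scaled counts (−0.64). Pde4d measured 7.32, 9.75, 12.3 and 8.04 FPKM in the same order of genotypes. It was called higher in HDQ200/200 (0.68) and not in HDQ150/150 (0.37) or HDQ315/+ (0.12). That call was lost with a pseudocount of 5 (0.49) and with the implied length (0.37). Pde4a measured 14.4, 18.7, 18.1 and 15.5 FPKM, and its differences of 0.36, 0.32 and 0.11 were not called. The ratio of Pde4b to Pde4d FPKM was 4.99 in HDQ+/+ and 2.68, 2.84 and 3.01 in HDQ150/150, HDQ200/200 and HDQ315/+.

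Pde8b, the high-affinity cyclic AMP enzyme, measured 27.9 FPKM in HDQ+/+, against 22.3 in HDQ150/150, 24.1 in HDQ200/200 and 23.8 in HDQ315/+. The mutant libraries lay close together under the wild type, and the differences of −0.31, −0.20 and −0.22 were not called. An antisense gene, Gm48420, overlaps exons of Pde8b, and no source used here says whether counting used strand. Its paralog Pde8a measured 8.0, 6.05, 8.81 and 5.84 FPKM.

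**Figure D3:**
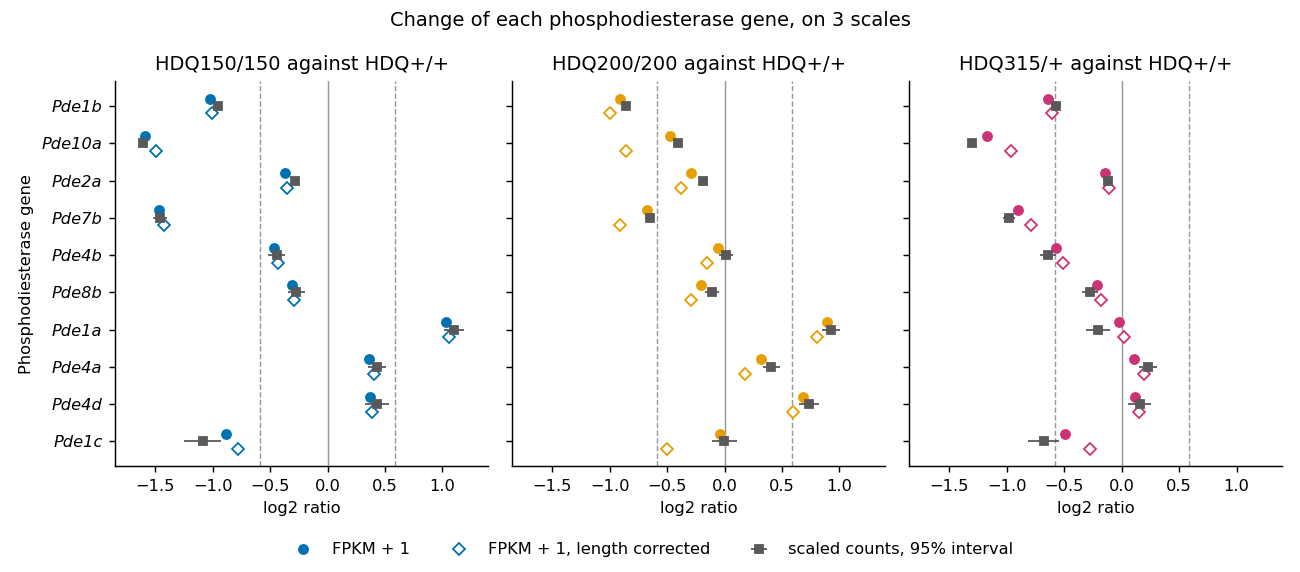
Difference of log2(FPKM + 1) against HDQ+/+ for the 10 phosphodiesterases, 1 panel per mutant genotype. Filled circles are the deposited FPKM, open diamonds the length-corrected values, squares the log2 ratio of scaled counts with its 95% counting interval, and dashed lines mark 1.5-fold. The circles of Pde1b and Pde7b lie below the lower line in all 3 genotypes, and that of Pde1a lies above the upper line in HDQ150/150 (1.03) and HDQ200/200 (0.89).

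Counted together, 1 member was called higher and 4 lower in HDQ150/150, where 2.91% of all tested genes were called higher and 3.32% lower, 6.24% in all. In HDQ200/200, 2 were called higher and 2 lower, against 5.37% and 8.78% of all tested genes, 14.2% in all. In HDQ315/+, 0 were called higher and 3 lower, against 2.90% and 2.12%, 5.02% in all. The median difference over the 10 members was −0.42, −0.13 and −0.36, and over all tested genes −0.01, −0.05 and 0.04. The 3 comparisons share the HDQ+/+ library, so their calls are not independent of each other. A low or high value in that library alone would enter all of them.

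The mutant libraries can also be set against each other without the wild type. Between HDQ200/200 and HDQ150/150, Pde10a (1.12), Pde1c (0.84) and Pde7b (0.80) were called higher in HDQ200/200 and 0 members lower, against 7.62% and 10.7% of all tested genes, 18.3% in all. The length correction brought these to 0.60, 0.28 and 0.49, which left Pde10a called. Between HDQ315/+ and HDQ150/150, Pde1a was called lower in HDQ315/+ (−1.06) and 0 members higher, against 1.93% and 2.51% of all tested genes, 4.43% in all. Between HDQ315/+ and HDQ200/200, Pde1a (−0.92) and Pde10a (−0.70) were called lower in HDQ315/+ and 0 members higher, against 11.0% and 18.2%, 29.2% in all. With the length correction Pde1a stayed called there (−0.76) and Pde10a did not (−0.08).

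The whole phosphodiesterase family held 21 genes, 15 of which passed the filter. Beside the 10 members these were Pde3b, Pde4c, Pde7a, Pde8a and Pde9a, and none of the 5 passed 1.5-fold in any comparison with the wild type. Pde3b, which cyclic GMP inhibits, measured 4.27, 3.27, 5.40 and 4.41 FPKM in HDQ+/+, HDQ150/150, HDQ200/200 and HDQ315/+. Pde9a, which is specific to cyclic GMP, measured 7.99, 6.81, 5.53 and 8.23 FPKM. Pde4c lay between 0.978 and 1.17 FPKM. The other 6, Pde3a, Pde5a, Pde6a, Pde6b, Pde6c and Pde11a, had a mean under 1 FPKM, and Pde6a was listed at 0 in HDQ150/150.

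Summed over the 21 genes, phosphodiesterase FPKM was 851.8 in HDQ+/+, against 492 in HDQ150/150, 613 in HDQ200/200 and 572 in HDQ315/+. The mutant sums were 0.578, 0.72 and 0.672 of the wild type. Pde10a, Pde1b and Pde7b together gave 572 FPKM in HDQ+/+, against 244 in HDQ150/150, 340 in HDQ200/200 and 326 in HDQ315/+. That was 67.1% of the family in the wild type and 49.7%, 55.4% and 56.9% in the mutants. The other 18 genes summed to 280.0 FPKM in HDQ+/+ and to 248, 273 and 246 in the mutants, which is 0.884, 0.976 and 0.88 of the wild type. Most of the lower family sum thus lay in these 3 genes, which were grouped after their values were seen. By substrate, the dual-substrate genes summed to 667, 368, 452 and 440.1 FPKM, the cyclic AMP-specific genes to 175.9, 115.9, 154 and 123, and the cyclic GMP-specific genes to 8.90, 7.97, 6.78 and 9.04.

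**Figure D4:**
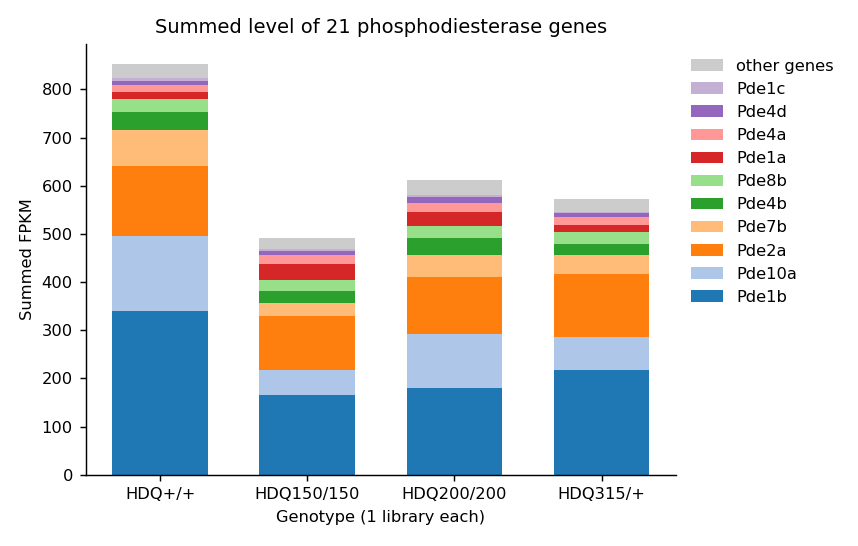
Summed FPKM of all 21 phosphodiesterase genes in each library as stacked bars from 0, split into the 10 members and the other genes of the family. The bar is 851.8 FPKM in HDQ+/+ and 492 to 613 in the mutants, with most of the difference in the Pde1b and Pde10a segments.

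The libraries also differed in markers of other cells. Of 27 measured genes that mark striatal projection neurons, a list without phosphodiesterases, 24 were called lower in HDQ150/150, 20 in HDQ200/200 and 13 in HDQ315/+, and 0 higher. Their medians were −1.14, −0.80 and −0.58, and their summed FPKM was 5620.7 in HDQ+/+ and 2629, 2685.6 and 3822.6 in the mutants. None was at 0 in any library, which is also true of the cortical, thalamic and choroid plexus lists, so the presence of these genes alone does not settle how purely striatal each library is. In bulk tissue, fewer projection neurons and less RNA per neuron cannot be told apart, and this touches every lowered gene here.

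Measured against the median of that list in the same library, Pde1b lay 0.11 above it in HDQ150/150, and 0.11 and 0.06 below it in HDQ200/200 and HDQ315/+. Pde10a lay 0.46 below the median in HDQ150/150 and 0.59 below it in HDQ315/+, where 3 of the 27 list genes were lower than Pde10a. In HDQ200/200 it lay 0.33 above the median, with 21 list genes lower, or 0.06 below it after the length correction. Pde7b lay 0.34 and 0.32 below the median in HDQ150/150 and HDQ315/+, and 0.13 above it in HDQ200/200, or 0.11 below it there after the length correction. Pde2a lay 0.77, 0.51 and 0.43 above it, with 27, 24 and 24 of the 27 list genes lower.

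**Figure D5:**
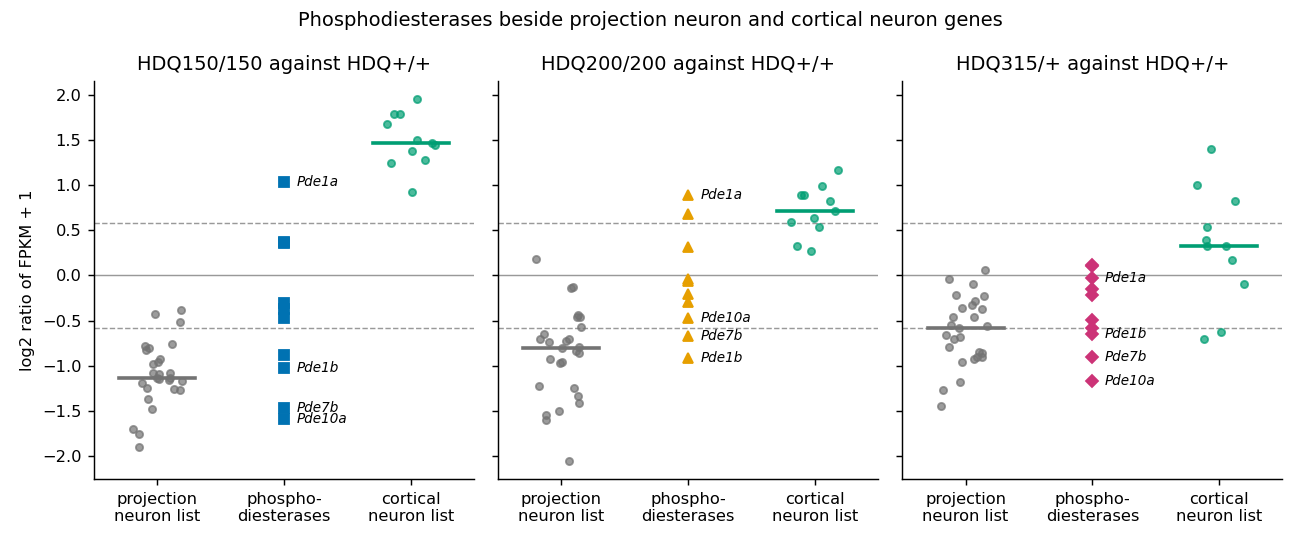
Differences of log2(FPKM + 1) against HDQ+/+ for the phosphodiesterases beside those of the projection neuron and cortical neuron lists, 1 panel per mutant genotype. Each point is a gene, horizontal bars are list medians and dashed lines mark 1.5-fold. Pde10a and Pde7b lie in the lower part of the projection neuron list in HDQ150/150 and HDQ315/+, and Pde1a lies on the side of the cortical list in HDQ150/150 and HDQ200/200.

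Genes of cortical excitatory neurons were called higher in all 3 mutant genotypes, in unequal numbers. All 11 were called higher in HDQ150/150 and 8 in HDQ200/200. In HDQ315/+, where Pde1a was level, 3 were called higher and 2 lower. Their medians were 1.46, 0.71 and 0.33, and their summed FPKM was 127.7 in HDQ+/+, against 416.8 in HDQ150/150, 220.1 in HDQ200/200 and 188 in HDQ315/+, with none at 0. Slc17a7, the vesicular glutamate transporter of cortical neurons, measured 57.0, 199, 106 and 71.7 FPKM. Genes of thalamic neurons were called higher in 1, 2 and 7 of 8 cases in HDQ150/150, HDQ200/200 and HDQ315/+, and summed to 25.6, 26.1, 31.8 and 129 FPKM from HDQ+/+ on, with none at 0. Genes of the choroid plexus were called lower in 8 of 8 cases in each mutant genotype. All 9 of that list summed to 1839.8 FPKM in HDQ+/+, against 150.2 in HDQ150/150, 151.0 in HDQ200/200 and 410.8 in HDQ315/+, with none at 0. The part of these cells in the phosphodiesterase values was not tested.

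Ependymal genes were called lower in 5 of 7 cases in HDQ150/150 and 6 of 7 in HDQ200/200, and higher in 2 of 7 in HDQ315/+. Their medians were −0.80, −0.75 and 0.22, or −0.91, −0.42 and −0.07 after the length correction. With that correction fewer of them passed 1.5-fold in HDQ200/200 and HDQ315/+. The median difference of the 12 interneuron genes was 0.04, −0.22 and −0.06 in HDQ150/150, HDQ200/200 and HDQ315/+. It was −0.01, −0.09 and 0.03 for astrocytes, −0.07, −0.26 and −0.01 for oligodendrocytes, 0.17, −0.29 and 0.09 for microglia, and −0.19, −0.09 and −0.24 for vascular cells.

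For the 6 members whose highest and lowest libraries differed by at least 1.5-fold, the genes of most similar pattern over the 4 libraries were listed by root mean square difference of centred log2(FPKM + 1). The search ran over the 6517 genes whose mean was 10 FPKM or more, and a smaller value means a closer pattern. Pde1b lay nearest to Prima1 (0.03), Arpp21 (0.04) and Lrrk2 (0.05). Pde7b lay nearest to Drd1a (0.06), Gpr52 (0.07) and Rps6ka5 (0.10). Pde10a had no neighbour as close, with Dgkb and Cnr1 at 0.16 and Pde7b at 0.17. Pde1a lay nearest to Serpini1 (0.07), Nptx1 (0.14) and Fam81a (0.15), Pde1c to Cacng4, Osbpl8 and Grm5 (0.04 to 0.05), and Pde4d to Spock1, Hspa12a and Gng12 (0.02 to 0.04). Within 0.1 lay 14 genes for Pde1b, 3 for Pde7b, 0 for Pde10a, 1 for Pde1a, 13 for Pde1c and 66 for Pde4d. The measure is not scaled by a member's log2 range, which was 0.68 for Pde4d and 1.59 for Pde10a.

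Among the enzymes that make cyclic AMP, calls went both ways. Of 9 measured adenylyl cyclases, 1 was called higher and 1 lower in each mutant genotype, with medians of −0.01, 0.15 and 0.07. Over all tested genes, 6.24%, 14.2% and 5.02% were called in either direction in HDQ150/150, HDQ200/200 and HDQ315/+, and the counts of the small lists that follow stand beside these shares. Adcy5, the main striatal adenylyl cyclase, measured 184 FPKM in HDQ+/+, against 83.3 in HDQ150/150, 118 in HDQ200/200 and 98.3 in HDQ315/+. Its differences of −1.14, −0.64 and −0.90 were called in all 3. Adcy1, a calmodulin-stimulated cyclase, measured 15.7, 25.4, 36.7 and 17.8 FPKM and was called higher in HDQ150/150 (0.66) and HDQ200/200 (1.17) but not in HDQ315/+ (0.17). Adcy1, like Pde1a, was thus called higher in the homozygous libraries. After the length correction the Adcy1 differences were 0.78 in HDQ150/150, 0.61 in HDQ200/200 and 0.42 in HDQ315/+. The guanylyl cyclase list had 5 measured genes, 1 of which, Nos1, encodes a nitric oxide synthase and not a cyclase. Of these 5, 0 were called in HDQ150/150 and HDQ315/+, and 2 higher in HDQ200/200, with medians of −0.22, 0.17 and −0.40. The 2 were Gucy1a2 and Nos1. After the length correction Gucy1a2 stayed past 1.5-fold in HDQ200/200, and Nos1, at 0.42, did not.

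Among 13 measured genes for G proteins and receptors that act on adenylyl cyclase, 4 were called lower and 1 higher in HDQ150/150, 4 lower and 0 higher in HDQ200/200, and 2 lower and 1 higher in HDQ315/+. The medians were −0.20, −0.06 and −0.10. Drd1a, the dopamine D1 receptor, measured 85.9, 32.7, 51.5 and 44.7 FPKM, with differences of −1.37, −0.73 and −0.93. Drd2, the D2 receptor, measured 85.5, 42.9, 50.8 and 62.1 FPKM, with −0.98, −0.74 and −0.45. Adora2a, the adenosine receptor of striatal projection neurons, measured 139, 57.7, 51.7 and 76.8 FPKM, with −1.26, −1.41 and −0.85. Gnas, the stimulatory G protein subunit, was higher in 2 genotypes, at 395, 665.5, 406 and 640.0 FPKM, with 0.75, 0.04 and 0.69. All 3 receptors and Adcy5 are also in the projection neuron list, as are Ppp1r1b, Arpp21 and Rasgrp2, so the lists are not independent.

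Targets downstream were mixed. Of 9 measured substrates of protein kinase A or genes of striatal phosphoprotein signalling, 5 were called lower in HDQ150/150, 7 in HDQ200/200 and 1 in HDQ315/+, with 0 higher and medians of −0.68, −0.93 and −0.13. Ppp1r1b, which encodes DARPP-32, measured 829.8, 425, 293 and 602 FPKM, with differences of −0.96, −1.50 and −0.46. Arpp21 measured 413, 187, 217 and 257 FPKM (−1.14, −0.93 and −0.68), Arpp19 197, 123, 125 and 145 (−0.68, −0.66 and −0.44), and Rasgrp2 126, 52.8, 40.8 and 103 (−1.24, −1.60 and −0.28). Pcp4, a calmodulin regulator, measured 1794.7, 1103.9, 724 and 1790 FPKM (−0.70, −1.31 and −0.00). Of 13 effectors such as protein kinase A subunits and cyclic nucleotide-gated channels, 1, 2 and 0 were called higher and 0 lower, with medians of 0.11, 0.13 and −0.06, beside 2.91%, 5.37% and 2.90% of all tested genes called higher, so that nothing is read from these counts. Of 14 kinase anchors and inhibitors, 2, 1 and 1 were called lower and 0 higher, with medians of −0.12, 0.24 and 0.01, beside 3.32%, 8.78% and 2.12% of all tested genes called lower. Akap9, an anchor with a long transcript, measured 17.5, 7.81, 17.1 and 10.5 FPKM, with −1.07, −0.03 and −0.68, or −0.95, −0.60 and −0.43 after the length correction. The 3 calmodulin genes had medians of −0.01, −0.39 and 0.04, and 1 of them, Calm2, was called lower in HDQ200/200 (−0.60). After the length correction the HDQ200/200 value was −0.21 for Calm2 and for the median, and Calm2 no longer passed 1.5-fold.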

How the data were processed

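Poly A+ RNA of mouse striatum was sequenced from paired ends, with 1 library per genotype. The FPKM values were deposited by the authors as 1 value per feature and library. The deposited table also holds a scaled count signal, whose values are within 0.05 of whole multiples of 1 step per library for 98.0% to 98.4% of features. Dividing by that step gave the fragments used for intervals. The submitters' processing notes name mm10, bcl2fastq 1.8.4, TopHat2 2.0.11, Bowtie2 2.1.0, Cufflinks 2.1.1, Cuffdiff and Cuffnorm, with no role or order. No source used here gives the annotation, the strand setting or the scaling. FPKM divides by an effective length and by a library total, so a trend on length in 1 library moves long and short genes apart.

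Of 29144 features, 5934 without a name (0.675% to 0.829% of the scaled counts, and 45.5%, 35.6%, 54.7% and 62.3% of summed FPKM in HDQ+/+, HDQ150/150, HDQ200/200 and HDQ315/+) and 706 short RNA features were left out, and a mean FPKM of at least 1 left 12875 genes. Differences are of log2(FPKM + 1), which understates the change of low genes, and calls start at 1.5-fold. The calculation was checked on simulated data. Python 3.11.15, numpy 2.4.6, pandas 2.3.3 and scipy 1.17.1 were used. Lengths came from the longest GENCODE M21 transcript, known for 99.3% of tested genes. Deposited starts count from 0 and are given from 1.

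The members and lists were chosen with earlier results of these data known. The text names all 10 members, the other phosphodiesterases with a mean FPKM of at least 1, genes of the other cyclic nucleotide lists past 1.5-fold in the same direction in at least 2 mutant genotypes (at most 5 per list), and the 3 nearest patterns of each varying member. Calm2, Gucy1a2, Nos1, the family members under 1 FPKM and Slc17a7 are named beside counts or results. Alternatives were the pseudocount, centring, scaling, scaled counts, length and GC corrections, the filter and the fold size.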

Additional observations from a re-analysis of the deposited data

How the results depend on the processing

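Leaving every choice but 1 as it was, no called member changed direction. Of 60 differences of a member (10 genes in 6 comparisons), 18 were called, and 11 of these stayed past 1.5-fold under all 8 other ways of computing the difference. Of the 42 that were not called, 7 passed under at least 1 of them and 14 changed sign. Of 480 recomputed differences, 264 moved by less than the counting interval and 216 by more. The count of members called moved by over 1.5 times as follows. At a fold size of 2 it was 0 rather than 4 in HDQ200/200 and 1 rather than 3 in HDQ315/+ against the wild type, 1 rather than 3 between HDQ200/200 and HDQ150/150, and 0 rather than 2 between HDQ315/+ and HDQ200/200. With the length correction by the annotated transcript it was 1 between HDQ200/200 and HDQ150/150. Both length corrections and the GC correction gave 2 rather than 1 between HDQ315/+ and HDQ150/150. Between HDQ315/+ and HDQ200/200 it was 4 with median centring, upper quartile scaling or scaled counts, and 1 with either length correction. Between HDQ315/+ and HDQ200/200, median centring moved every difference by −0.11, and upper quartile scaling moved the median of all tested genes by −0.12.

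The length and GC corrections were chosen after seeing the data, and the planned correction by the table's own length was not run because that column holds no value. No paired analysis was possible because each genotype has 1 library, so no replicate was left out either. Counting error is small for the abundant members (Pde10a rests on at least 9215 fragments) and larger for Pde1c (417 in HDQ150/150). It leaves out differences between animals, which these libraries cannot show.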
